A study of Rattus norvegicus with 6 samples.

Results

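The genes examined here make, inactivate, carry and sense thyroid hormone: the deiodinases Dio1, Dio2 and Dio3, the nuclear receptors Thra and Thrb, the hormone-responsive gene Thrsp, and the plasma carriers Ttr and Serpina7. These 8 genes were listed by name, and a transcript row was matched to 7 of them among 19345 rows and 7126 named genes. Serpina7, thyroxine-binding globulin, had no matched row and was not analysed here. For a gene with several rows, the row was selected on its intensity, as the one with the highest mean over the 6 arrays. The list was put together with earlier results of the same comparison known, the large difference of Dio3 among them, so its members' values are a description and lend no independent support to each other.

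Thyroxine, the main product of the thyroid gland, is a prohormone. Outer-ring deiodination by Dio1 or Dio2 turns it into the active hormone T3, while inner-ring deiodination by Dio3 inactivates both hormones. All 3 enzymes carry selenocysteine at the active site. Liver normally relies on Dio1, and Dio3 is best known from placenta and fetal tissue, with a return in injured or hypoxic adult tissue. T3 acts through Thra and Thrb, which bind DNA together with retinoid X receptors, and Thrb is the main form in liver.

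The livers came from male Sprague-Dawley rats of 90 to 120 days that had been bled by amputation of the tail, a model of uncontrolled hemorrhagic shock. Limited resuscitation gave Ringer's solution to hold mean arterial pressure at 50 to 60 mmHg, and aggressive resuscitation gave it with a target of over 80 mmHg. Each regimen was assigned to 6 rats, tissue was taken at 330 min, and RNA from 3 of the livers in each regimen was put on 1-colour NimbleGen arrays, 1 array per rat. Both groups were bled and infused, and rats without shock were not analysed here, so no value gives a distance from the unbled liver. Values are RMA intensities, which are background-corrected, normalised and summarised per transcript. Hormone concentrations and enzyme activities were not analysed here.

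Hepatocyte markers were read beside the label of liver. All 8 had a row, and each lay above the array median on every array. Their summed intensities were 208734 to 234219 under limited and 218769 to 233226 under aggressive resuscitation. Lung transcripts stood apart in aggressive arrays 1 and 3. The summed intensity of 14 lung markers was 7181 and 10072 there, against 3353 in aggressive array 2 and 2001 to 2709 in the limited arrays. Surfactant protein C, Sftpc, was 1247 and 1734 in those arrays and 33.7 in aggressive array 2. The lung-list genes Car4 and Pdpn were raised in aggressive array 2 as well, at 802 and 739 against at most 129 and 360 in the limited arrays. Results that touch this are given with and without both arrays. In whole tissue, fewer cells of a type and less RNA per cell cannot be told apart. Array medians lay between 212 and 245, and a row below them is called dim. Intensities of different rows depend on their probes, so levels are compared between arrays and not between genes.

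The bases before the annotated start of 4 members are shown, because Dio3 and Dio2 had lower values in every limited array and Dio1 and Thrsp had higher values. Ttr, also lower in every limited array but by a small difference, is not shown and its window held no match. Each line gives the 250 bases before the start, 5′ to 3′ on the gene's strand, from RefSeq. Capitals mark matches on either strand to the GC box GGGCGG, the TATA box TATAAA or the CCAAT box.
Dio3 (GRCr8 chr6:135106822-135107071, plus strand): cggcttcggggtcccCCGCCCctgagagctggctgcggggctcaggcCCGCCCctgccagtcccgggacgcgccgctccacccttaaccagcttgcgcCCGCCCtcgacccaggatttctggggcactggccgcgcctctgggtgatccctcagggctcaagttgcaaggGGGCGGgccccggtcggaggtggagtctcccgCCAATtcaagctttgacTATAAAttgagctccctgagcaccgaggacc
Dio2 (GRCr8 chr6:115410595-115410844, minus strand): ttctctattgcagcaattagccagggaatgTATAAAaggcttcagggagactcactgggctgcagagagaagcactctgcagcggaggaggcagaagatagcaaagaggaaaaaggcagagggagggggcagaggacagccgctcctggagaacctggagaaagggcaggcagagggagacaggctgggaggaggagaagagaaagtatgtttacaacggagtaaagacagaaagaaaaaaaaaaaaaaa
Dio1 (GRCr8 chr5:127319785-127320034, minus strand): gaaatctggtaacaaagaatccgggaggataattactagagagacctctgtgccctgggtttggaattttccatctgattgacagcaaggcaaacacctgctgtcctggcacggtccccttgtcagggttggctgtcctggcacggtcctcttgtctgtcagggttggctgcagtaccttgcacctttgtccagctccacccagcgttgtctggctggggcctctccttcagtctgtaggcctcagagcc
Thrsp (GRCr8 chr1:161138965-161139214, minus strand): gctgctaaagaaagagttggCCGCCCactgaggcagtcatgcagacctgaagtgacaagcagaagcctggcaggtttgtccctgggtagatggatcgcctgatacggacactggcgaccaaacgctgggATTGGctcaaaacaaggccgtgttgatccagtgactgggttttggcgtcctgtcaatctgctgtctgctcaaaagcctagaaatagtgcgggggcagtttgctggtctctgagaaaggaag

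The Dio3 window held 4 GC boxes, a CCAAT box whose first base lay 48 bases before the start, and a TATA box whose first base lay 31 bases before it. Its GC content of 68.8% was reached or exceeded by 9.8% of 33469 promoters in the table, whose median was 51.2%. GC boxes also lay in windows not shown, of Thra (79.6% GC) and Thrb (74% GC), whose arrays overlapped between groups. Another Thra window (44.8% GC) held no match. Dio2 had a TATA box whose first base lay 220 bases before the start, Thrsp a GC box and a CCAAT box, and Dio1 no match. Of all promoters, 30.5% held the GC box, 12.9% the TATA box and 34% the CCAAT box. The thyroid hormone receptor hexamer AGGTCA (14.1% of promoters), the hypoxia response core ACGTG (16.6%) and the cyclic AMP response core TGACG (18.2%) were also searched on both strands, and these letters were not found in the windows of Dio1, Dio2, Dio3 or Thrsp. The motifs did not overlap each other in these windows.

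**Figure D1:**
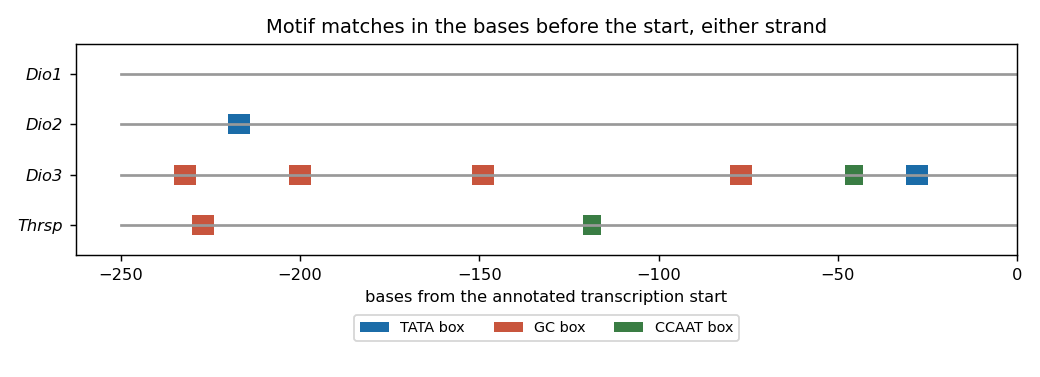
Motif matches in the 250 bases before the annotated start of Dio1, Dio2, Dio3 and Thrsp, on either strand, by distance from the start in bases. Dio3 holds 4 GC boxes, a CCAAT box and a TATA box, and Dio1 holds no match.

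Dio3 and Dio2 had lower values in every limited array than in any aggressive array, and Dio1 had higher ones, but only Dio3 passed the test. Dio3 (NM_017210), the inactivating enzyme, was lower under limited than under aggressive resuscitation. Its intensity was 117, 79.6 and 73.8 in the limited arrays and 539, 549 and 751 in the aggressive arrays. All 3 limited values were dim and all 3 aggressive values lay above the array medians, with no overlap. The means were 90.2 ± 23.6 (SD, n = 3) and 613 ± 120 (SD, n = 3), a log2 difference, limited minus aggressive, of -2.78 (SE 0.253, 95% interval -3.37 to -2.18). Dio3 was thus 6.86-fold higher under aggressive resuscitation (adjusted p = 0.0425, limma's moderated test with Benjamini-Hochberg adjustment over all rows).

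Summed lung markers stood high in aggressive arrays 1 and 3, and Dio3 was high in all 3 aggressive arrays. Aggressive array 2, where Sftpc was 33.7 but Car4 and Pdpn were raised, had a Dio3 intensity of 549, next to 539 in aggressive array 1. The part of lung RNA in the Dio3 difference was not tested. Without both arrays with lung transcripts the log2 difference was -2.64, against a single aggressive rat. That fit did not pass (adjusted p = 0.514, limma), and it takes the spread from the limited arrays alone. Leaving out any 1 array kept the difference between -2.98 (without limited array 1) and -2.62 (without aggressive array 3), but the adjusted p then rose to between 0.100 and 0.190 (limma), so the call rested on having all 6 arrays. With the replicate number as a block it did not pass either (adjusted p = 0.291, limma). It passed with a pseudocount of 50, where 1.12% of all rows passed, and after removal of rows whose mean lay below the median of row means, where 4.99% of the remaining rows passed and Dio3 was kept through its aggressive arrays.

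Dio2 (NM_031720), which activates thyroxine and is scarce in normal liver, was dim on all 6 arrays. Its intensity was 37.3, 26.8 and 16.4 under limited and 88.8, 124 and 46.1 under aggressive resuscitation. The groups did not overlap, and aggressive array 3 lay nearest to the limited values. The log2 difference was -1.65 (SE 0.435, 95% interval -2.67 to -0.63), and it did not pass (adjusted p = 0.208, limma). At such intensities a pseudocount of 50 brought the difference to -0.79. Against aggressive array 2 alone it was -2.29.

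Dio1 (NM_021653), the main hepatic deiodinase, is itself induced by T3. It read 2476, 2443 and 2182 in the limited arrays and 1961, 1195 and 1902 in the aggressive arrays. Every limited value was above every aggressive value, and aggressive array 2 was the lowest. The means were 2367 ± 161 (SD, n = 3) and 1686 ± 426 (SD, n = 3), with a log2 difference of 0.52 (SE 0.242, 95% interval -0.05 to 1.09) that did not pass (adjusted p = 0.419, limma). The size depended on aggressive array 2. It was 0.29 without that array and 0.98 against that array alone, as left by removing both arrays with lung transcripts.

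**Figure D2:**
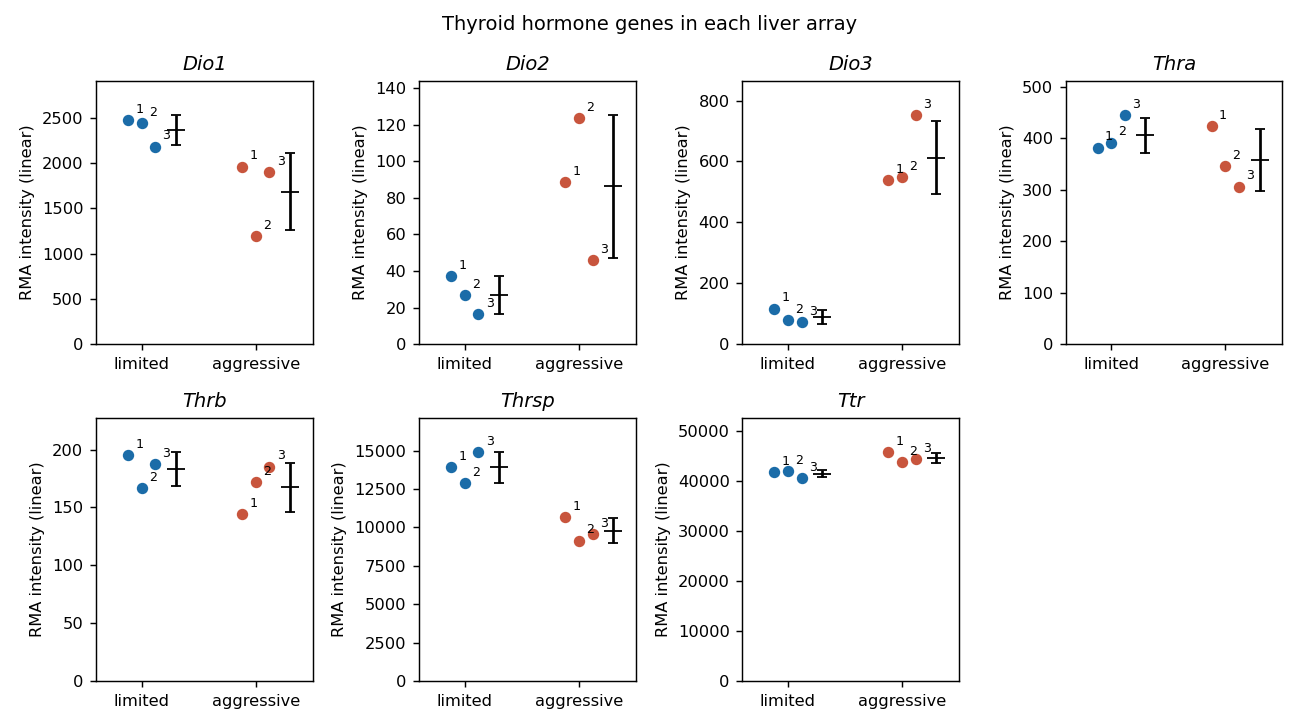
RMA intensity (linear axes from 0) of the 7 measured members in each array, numbered by replicate, with the mean and SD of each group (n = 3) in black. Dio3 lies at 73.8 to 117 under limited and 539 to 751 under aggressive resuscitation, while the groups overlap for Thra and Thrb.

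Both receptors had overlapping groups. Thra, which encodes the receptor form that prevails outside liver, had a pair of rows with nearly equal means over the arrays, 382 for the row used (NM_001017960) and 381 for the other (NM_031134). The row used read 382, 391 and 444 under limited and 424, 345 and 306 under aggressive resuscitation. The groups overlapped, and the log2 difference was 0.19 (95% interval -0.28 to 0.66, adjusted p = 0.735, limma).

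The other Thra row read 333, 596 and 420 against 328, 264 and 345. It overlapped too, with a log2 difference of 0.49 (95% interval -0.12 to 1.10, adjusted p = 0.471, limma). Both rows leaned the same way, and limited array 2 was the highest on the second.

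Thrb (NM_012672) was dim throughout, at 195, 167 and 187 under limited and 144, 172 and 185 under aggressive resuscitation. Its arrays overlapped, and the log2 difference was 0.14 (95% interval -0.31 to 0.58, adjusted p = 0.807, limma).

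Thrsp (NM_012703), also called Spot 14, is a lipogenic protein gene of liver that T3 and carbohydrate both induce. It read 13915, 12883 and 14891 under limited and 10673, 9133 and 9546 under aggressive resuscitation. The groups were separate, and the spread within each was small. The means were 13897 ± 1004 (SD, n = 3) and 9784 ± 797 (SD, n = 3), a log2 difference of 0.51 (SE 0.178, 95% interval 0.09 to 0.92). It did not pass in the test used here (adjusted p = 0.307, limma). Once the prior was robust and followed intensity, a setting in which 2.95% of all rows passed, it did (adjusted p = 0.0416, limma).

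Ttr (NM_012681), transthyretin, carries thyroxine and retinol-binding protein in plasma and falls in the acute phase response. It read 41847, 41941 and 40646 under limited and 45821, 43733 and 44396 under aggressive resuscitation. The arrays did not overlap, yet the difference was small, at -0.11 on the log2 scale (95% interval -0.49 to 0.28, adjusted p = 0.830, limma). These values lay near the top of the range, which reached 57240 on the brightest row, and whether the signal was compressed there was not tested.

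Of the 7 measured members, 1 passed, Dio3, and 0.114% of all rows passed. In 5 members the limited and aggressive arrays were separate, 3 lower (Dio2, Dio3 and Ttr) and 2 higher (Dio1 and Thrsp) under limited resuscitation. Over 1 row per named gene, 23.1% were separate, 11.2% lower and 11.9% higher. Nothing is read from either count, because the list was chosen with the comparison known. The median log2 difference of the members was 0.14, and that of all named genes 0.01. The filter on row means kept 5 members, not Dio2 and Thrb.

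**Figure D3:**
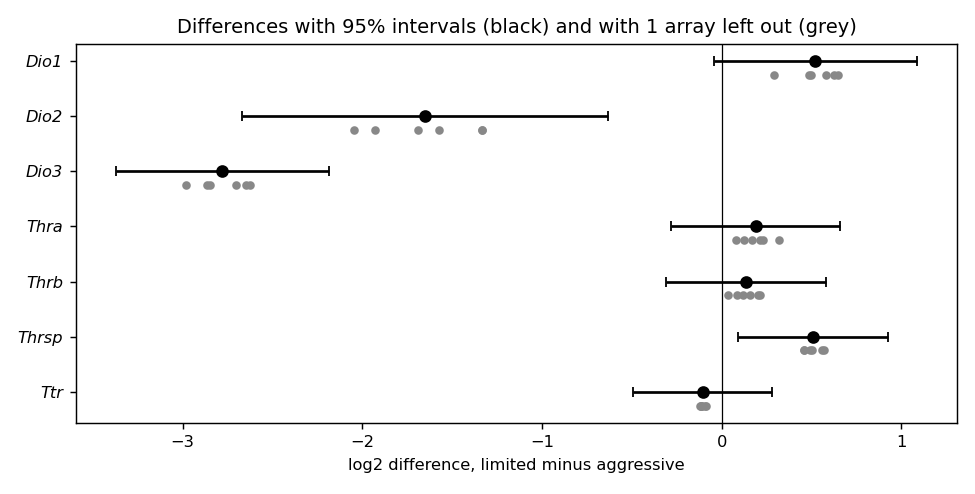
Log2 difference, limited minus aggressive, of the 7 measured members, with 95% intervals from limma in black and the values with each array left out in turn in grey. Dio3 lies at -2.78 and stays between -2.98 and -2.62 with an array left out, while the intervals of Dio1, Thra, Thrb and Ttr include 0.

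Genes that surround thyroid hormone action were taken from 8 lists, and 76 of the 101 listed genes had a row. In the test used here 0 of them passed over all rows. With the robust, intensity-dependent prior, where 2.95% of all rows passed, 13 passed. Without adjustment, 23 of the 76 had a p under 0.05 in the test used here, against 13.1% of all rows. Their groups did not overlap in 44.7%, against 23.1% of named genes, with 18 higher and 16 lower under limited resuscitation. These lists too were chosen with earlier results known, and nothing particular to them is read from the counts.

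Membrane transporters of the hormone split. Of 9 measured, 4 lay above and 5 below 0, with a median log2 difference of -0.11. Slc16a10 (MCT10), which also carries aromatic amino acids, averaged 866 ± 86.5 (SD, n = 3) in the limited and 1363 ± 336 (SD, n = 3) in the aggressive arrays, with a log2 difference of -0.63. The organic anion transporters Slco2b1 and Slco1b2 differed by 0.56 and -0.35. Adjusted p values of these genes lay between 0.319 and 0.467 (limma).

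Carriers and binders other than the members differed little. The 5 measured genes ranged from -0.05 to 0.14, with overlapping arrays in each, and the cytosolic T3 binder Crym differed by 0.10. P4hb, a disulfide isomerase that also binds T3, differed by 0.14, and Alb, albumin, by -0.05.

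Among 8 conjugating and deconjugating enzymes the median was 0.15. The sulfotransferase Sult1c2 differed by 0.77 and the glucuronosyltransferase Ugt1a6 by -0.66, each without overlap and without passing (adjusted p = 0.269 and 0.304, limma). Sult1b1, which sulfates iodothyronines, differed by 0.38 with overlapping arrays.

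Of the receptor partners, 8 of 16 listed genes had a row, 5 above and 3 below 0, with a median of 0.40 and 0 that passed. All 3 retinoid X receptors, the dimer partners of Thra and Thrb, had higher values in every limited array than in any aggressive array. The same was so for 11.9% of named genes, and nothing particular to these receptors is read from it. The log2 difference was 0.86 for Rxra, 0.56 for Rxrb and 0.77 for Rxrg. Rxra, the main hepatic form, was 1881 ± 457 (SD, n = 3) against 1014 ± 100 (SD, n = 3). The coactivator Crebbp differed by 1.20 on the log2 scale, with 353 ± 27.6 (SD, n = 3) against 165 ± 81.5 (SD, n = 3). None of these 4 passed (adjusted p = 0.219 to 0.344, limma). The deacetylase Hdac3, a part of the corepressor complex, differed by -0.07, its partner Gps2 by -0.08 and the coactivator Thrap3 by -0.18, each with overlapping arrays.

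Hepatic genes that T3 induces in rat or mouse did not move one way. Of 19 measured besides Dio1 and Thrsp, 9 lay above and 10 below 0, with a median of -0.01. The glucose-6-phosphatase G6pc1 differed by -1.06 and the mitochondrial coactivator Ppargc1a by -1.09. The hormone-responsive transcription factor Klf9 differed by -0.63 and the malic enzyme Me1 by -0.54, the opposite sign to Thrsp. Adjusted p values of these 4 genes lay between 0.118 and 0.329 (limma). Most of them also answer to insulin, glucagon or glucocorticoid.

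Of the machinery that inserts selenocysteine into the deiodinases, 5 of 10 listed genes had a row, with a median of 0.02. The selenocysteine lyase Scly, which recovers selenium, differed by 0.51 without overlap (adjusted p = 0.351, limma). Sephs2, which makes the selenium donor, and Trnau1ap, which binds the selenocysteine tRNA, differed by -0.14 and -0.13.

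Factors and cytokines linked to deiodinase genes spread widely. Of 18 measured, 10 lay above and 8 below 0, with a median of 0.18. Gata4, which acts with Hnf4a on the mouse Dio1 gene, differed by 1.08, whereas Hnf4a differed by -0.07. Tnf, a cytokine that lowers Dio1 in cultured hepatocytes, differed by 1.05, with 1008 ± 76.2 (SD, n = 3) against 490 ± 73.1 (SD, n = 3). The nuclear receptor Nr1i3 differed by 0.98 and the AP-1 subunit Jun by -0.92. Hif1a, the hypoxia-inducible subunit linked to Dio3 induction in rat heart, differed by -0.39. Adjusted p values of Gata4, Tnf, Nr1i3, Jun and Hif1a lay between 0.113 and 0.432 (limma).

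Dio3 lies in an imprinted domain with Dlk1. Of 9 genes listed from that domain and its flanks, 4 had a row, and all 4 lay below 0. Dlk1, a Notch-like protein of fetal liver, was 149, 129 and 71.7 under limited and 298, 170 and 150 under aggressive resuscitation. The log2 difference was -0.82 (95% interval -1.69 to 0.05). The groups were separate by the narrow gap between 149 and 150. The flanking genes Dync1h1, Hsp90aa1 and Yy1 differed by -0.37, -0.31 and -0.18. None passed (adjusted p = 0.406 to 0.774, limma), and each difference was smaller in size than that of Dio3.

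**Figure D4:**
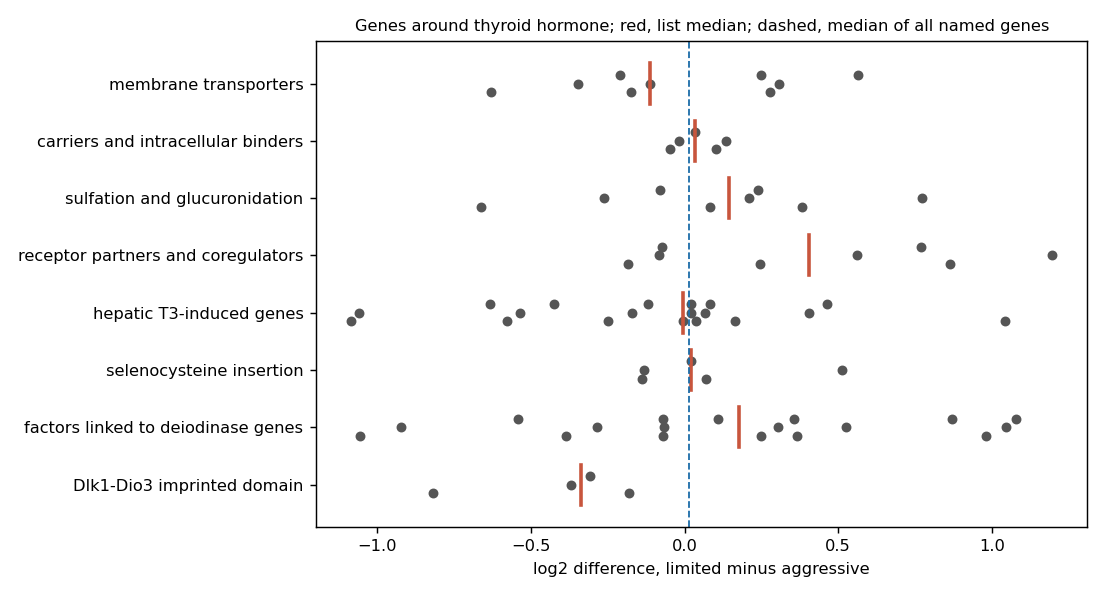
Log2 difference, limited minus aggressive, of each measured gene in 8 lists around thyroid hormone, with the list median in red and the median of all named genes as a dashed line. List medians run from -0.34 in the list of the Dlk1-Dio3 domain and its flanks to 0.40 among receptor partners.

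The genes with the pattern most like Dio3 were found by the root mean square distance of log2 values, each gene centred on its mean over the 6 arrays, among 7122 other named genes. Car4, a membrane-bound carbonic anhydrase, was nearest, at 0.205, followed by the metalloproteinase Mmp3 (0.403) and the mitochondrial carrier Slc25a25 (0.446), with the chitinase Chit1 (0.502) the fifth. Car4 was 129, 101 and 128 under limited and 695, 802 and 970 under aggressive resuscitation, highest in aggressive array 3 as was Dio3. Mmp3, Slc25a25 and Chit1 were highest in aggressive array 1 or 2. The measure picks genes with an equally large group difference by construction, which ranged from -2.78 for Car4 to -2.05 for Chit1. Car4 is abundant in lung, and its value in aggressive array 2, where Sftpc was 33.7, was 802.

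**Figure D5:**
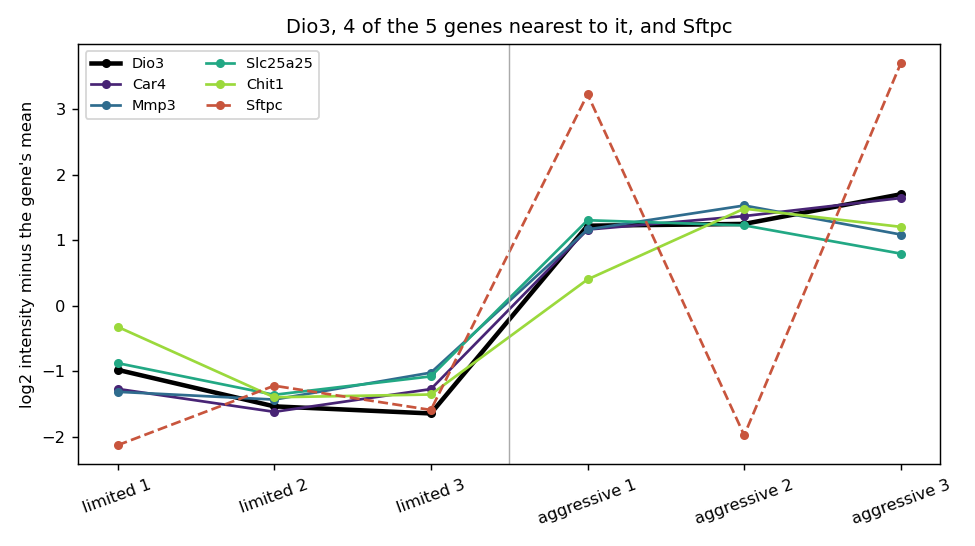
Log2 intensity minus each gene's mean over 6 arrays for Dio3 (thick black), 4 of the 5 genes nearest to it and Sftpc (dashed red), by array. Dio3 and these 4 genes are raised in all 3 aggressive arrays, while Sftpc is raised in aggressive arrays 1 and 3 only, at 1247 and 1734.

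The same measure gave far smaller distances for Dio1, whose group difference was smaller than that of Dio3. The reason for the smaller distances was not tested. Nearest were the channel gene Panx2 (0.0768), the cobalamin carrier Tcn2 (0.0872), the gamma-secretase subunit Psenen (0.0948), the sterol reductase Tm7sf2 (0.101) and the SNARE gene Ykt6 (0.104). All 5 were lowest in aggressive array 2, as was Dio1. Tcn2 was 2622, 2723 and 2274 under limited and 2036, 1475 and 2020 under aggressive resuscitation. Their log2 differences lay between 0.34 and 0.48, and none passed (adjusted p = 0.399 to 0.581, limma).

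Markers of other cell types were read beside these genes, and 0 of those of macrophages, stellate cells and fibroblasts, endothelium, cholangiocytes and neutrophils passed (smallest adjusted p = 0.0899, limma, for Csf1r of macrophages). All 9 measured macrophage markers lay above 0, with a median of 0.73 and summed intensities of 43962 to 50988 under limited and 29309 to 34427 under aggressive resuscitation. That is the opposite sign to Dio3 and Dio2 and the same sign as Dio1 and Thrsp. Col3a1, a collagen of fibroblasts and stellate cells, differed by 0.66 and Acta2 by 0.59, within a list of 6 whose median was -0.0018. Endothelial (2 measured, median 0.14), cholangiocyte (3, -0.03) and neutrophil (3, 0.10) markers overlapped between groups. The part of any of these cell types in the members' values was not tested.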

How the data were processed

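Liver RNA of 6 rats was hybridised to 1-colour Cy3 NimbleGen arrays (the labels' protocols). Linear intensity values were deposited, 1 per row and array, and were made with RMA by the authors, per the submitters' processing notes. The RMA version, build and annotation were not given in the sources used here. Precision is limited by 3 arrays per group.

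Accessions without version were matched to RefSeq symbols (GRCr8), which named 7223 of 19345 rows. Log2 values were fitted by lmFit and eBayes of limma 3.58.1 (R 4.3.3). Tests were two-sided, had 4 residual degrees of freedom and a prior of 3.26, and p was adjusted by Benjamini-Hochberg over 19345 rows at a threshold of 0.05. The procedure was tested on simulated data. Members and lists were chosen with earlier results of these data known. Named were all members, the 3 genes with the smallest p of each pathway list with a few fixed for their role after their values were seen (Rxrb, Hdac3, Gps2, Thrap3, Klf9, Me1, Gata4, Hnf4a, Hif1a, Yy1), and the 5 genes nearest to Dio3 and to Dio1, of which some genes are not reported here by name. A list of selenoproteins was planned from a protein table and not run. Labels do not say how rats sharing a replicate number are related. Their deviations from the group means correlated at -0.06, -0.05 and 0.05 for numbers 1, 2 and 3, so the arrays were not treated as pairs. Alternatives were a second quantile normalisation, centred arrays, removal of dim rows, an intensity trend with robust prior, array weights, the replicate block, a pseudocount of 50, the mean of rows per gene and arrays left out. Promoter bases are from RefSeq. Figures used matplotlib 3.10.9.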

Additional observations from a re-analysis of the deposited data

How the results depend on the processing

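The directions of all 7 members held under each of the alternatives run (14 or 15 per member). Dio3 passed with a second quantile normalisation, centred arrays, array weights, the mean of rows per gene, a pseudocount of 50, without dim rows and with an intensity trend and robust prior. It did not pass with the replicate block (adjusted p = 0.291, limma), without both arrays with lung transcripts or without any 1 array. The count of members that passed was 2 with the trend and robust prior (Dio3 and Thrsp), 0 with the replicate block, 0 without both arrays with lung transcripts and 0 with any 1 array left out. The count of all rows that passed, 22 in the test used, was 483 without dim rows, 570 with the trend and robust prior, 217 with a pseudocount of 50, 0 with the replicate block, 0 without both arrays with lung transcripts and 0 to 2 with 1 array left out. Without adjustment, p was under 0.05 in 2196 rows with the replicate block, 1582 without both arrays with lung transcripts and 1913 to 2382 with 1 array left out (limma). Of the pathway list genes, where 0 passed, 11 passed without dim rows, 13 with the trend and robust prior and 5 with a pseudocount of 50. The cause of these changes was not tested. Other scalings moved the median of all rows by less than 0.1 on the log2 scale. Signal over background was not given, which limits what can be said of Dio2 and Thrb.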

Other observations

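Markers of the thyroid gland were read as a check. Of 9 listed genes 5 had a row, their arrays overlapped between groups, and 0 passed (smallest adjusted p = 0.512, limma). Thyroglobulin, Tg, was 126, 60.3 and 93.2 under limited and 66.6, 43.1 and 74.1 under aggressive resuscitation, below the array medians. Foxe1, a forkhead factor of thyroid and foregut epithelium, was 638 in aggressive array 1 and 26.6 to 86.0 in the other 5 arrays. Iyd, which recovers iodide from iodotyrosines and is also expressed in liver, was 1094 to 1513 under limited and 1416 to 1488 under aggressive resuscitation.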
